A study of Mus musculus with 8 samples.

Results

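The genes described here mark macrophages and monocytes, the phagocytes that a mammary tumour draws from the tissue and from the blood. They are 34 genes chosen by name, each represented by the array probe with exactly 1 gene symbol and the highest mean over the tumours. The array gave 22180 genes such a probe, and 33 of them were on this list. The remaining member, Spp1, which encodes the secreted protein osteopontin, was not analysed here. Each of the 33 had a single such probe, and all 33 lay above the limit set for dim genes.

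The tissue was primary mammary tumour from untreated, transgenic mice of the FVB strain, and 8 tumours were each measured on 1 Affymetrix whole-transcript array. Every tumour carried NeuNT, a form of Neu, the rodent ErbB2 receptor tyrosine kinase. NeuNT stood alone in 4 tumours, while in the other 4, called NeuNT/H1074R, a mutant p110α (the catalytic subunit of PI3K) was added. The series title has H1047R for this mutation, and the spelling of the sample labels is kept here. The sources used here do not give the promoters that drive the transgenes, the age of the mice or whether each tumour came from a mouse of its own, so p-values measure only the spread between these 8 tumours. The question of the design is what mutant p110α adds to the expression profile of an ErbB2-driven tumour.

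Most tissue macrophages need the growth factor CSF1 and its receptor CSF1R to survive. Resident-type macrophages of the mammary gland and its stroma carry scavenger and lectin receptors such as FOLR2, MRC1 and LYVE1, whereas cells newly arrived from the blood still carry monocyte markers such as Ly6C and CCR2. In tumours, monocyte-derived cells can take on a lipid-associated state with TREM2, GPNMB and osteopontin, in which they take up and store lipid from dying cells.

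Array medians ran from 4.82 to 4.87 on the log2 scale, and no pair of arrays held the same values. All 10 luminal epithelial markers were above the limit for dim genes, and the epithelial cadherin gene Cdh1 ran from 9.83 to 10.51 and the surface antigen gene Cd24a from 10.41 to 11.88. Other luminal markers varied far more between tumours: Krt19 ran from 5.37 to 11.52 and Foxa1 from 4.94 to 11.74. The mean deviation of the 10 markers from their own means ran from -0.70 to 0.95 in NeuNT tumours and from -0.30 to 0.18 in NeuNT/H1074R tumours. Two-sided tests used limma over all 16635 genes whose mean was not in the lowest 25%, with adjustment over all of them, and a log2 difference is always NeuNT/H1074R minus NeuNT. Across all tested genes 0.0% passed an adjusted p of 0.05, 3.82% had an unadjusted p under 0.05, and the genotypes did not overlap for 2.69%.

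The macrophage and monocyte genes varied mainly between tumours of one genotype, and no member separated the genotypes. The share of a member's variance that lay between genotypes was 36.0% at most, for Folr2. A mean below that of NeuNT was found in NeuNT/H1074R for 28 of the 33 (84.8%), against 50.5% of all tested genes, with a median log2 difference of -0.26 against -0.0027. None of the 33 passed, none had an unadjusted p under 0.05, and none had genotypes that did not overlap. The smallest adjusted p among them was 0.978. In bulk tissue, fewer macrophages and less RNA per macrophage cannot be told apart. The size of the median rested in part on single tumours: it was -0.09, with 21 members lower, when NeuNT/H1074R replicate 3 was left out, and -0.46 when NeuNT/H1074R replicate 1 was.

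Tumours of one genotype differed from each other by more than the usual gene did. The residual SD, the spread between tumours of a genotype, was above the median of all tested genes (0.248) for 31 of 33 members, or 93.9% against 50%, and its median over the members was 0.54. This was not particular to the members. The share was 100% for tested fibroblast, neutrophil and skeletal muscle markers and 87.5% for adipocyte and endothelial markers. It was 85.7% for mast cell, 80% for luminal epithelial and 62.5% for T cell markers. Shares were lower for NK cell (50%), B cell (25%) and dendritic cell markers (14.3%). One tumour, NeuNT/H1074R replicate 3, had the lowest value of all 8 for 21 members and lay above the member's mean for only 2. NeuNT replicate 1 and NeuNT/H1074R replicate 4 were next, among the lowest 2 tumours for 16 and 13 members. At the other end NeuNT replicate 3 lay above the mean for 30 members and was the highest tumour for 10.

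**Figure D1:**
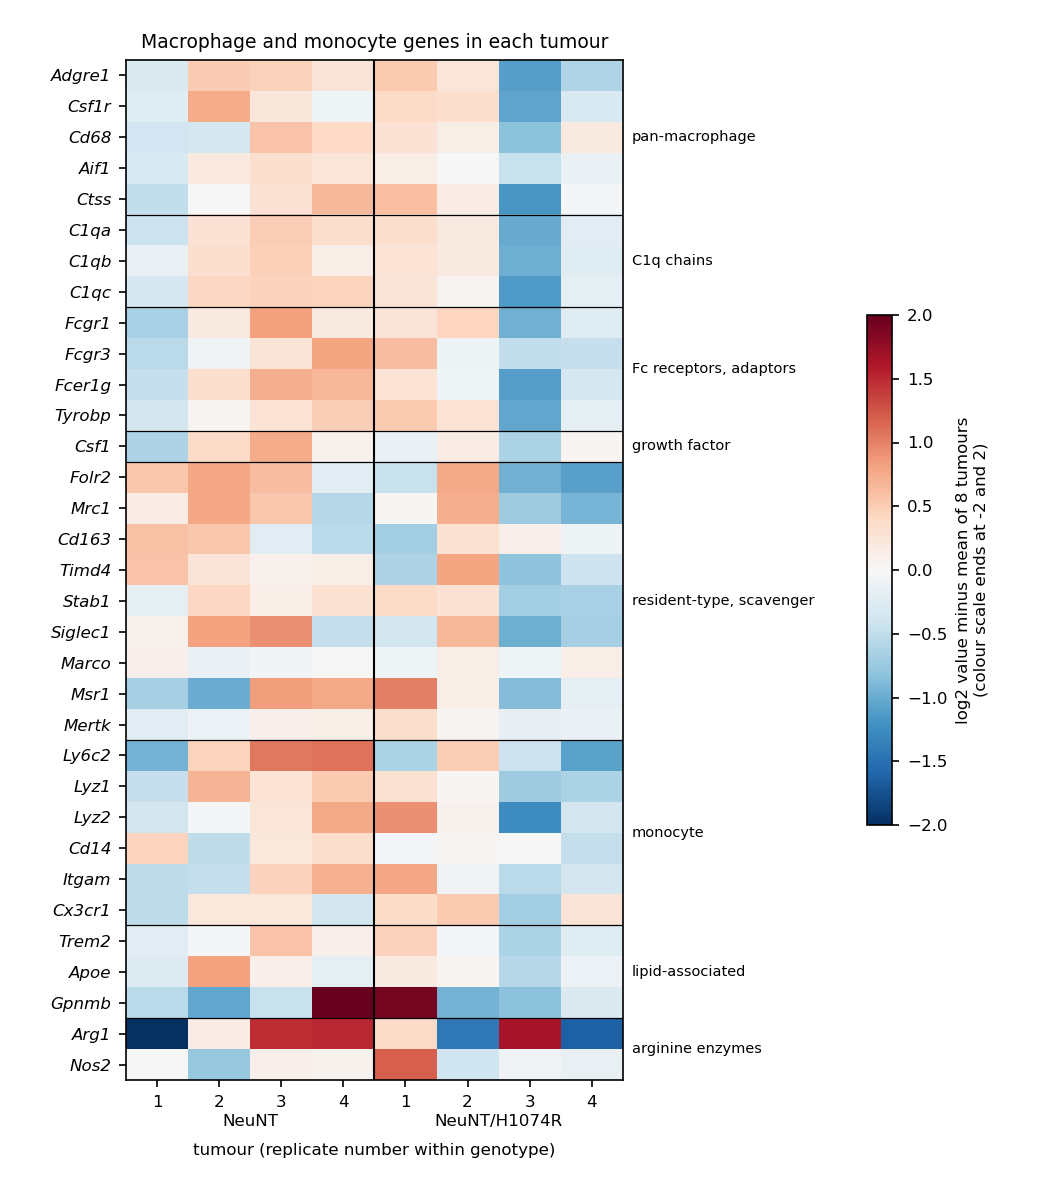
Log2 value of each of 33 macrophage and monocyte genes in each tumour minus that gene's mean over the 8 tumours, with genes as rows grouped by role and tumours as columns, 4 per genotype. Red is above and blue below the mean, and the column of NeuNT/H1074R replicate 3 is blue in most rows, while Gpnmb is deep red in NeuNT replicate 4 and NeuNT/H1074R replicate 1.

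Genes shared by nearly all macrophages had the same lowest tumour, while their highest tumours differed. Csf1r, the receptor for CSF1, stood at 8.50, 9.48, 8.96 and 8.66 in NeuNT replicates 1 to 4 and at 9.12, 9.07, 7.68 and 8.44 in the NeuNT/H1074R tumours in the same order. The low value is again NeuNT/H1074R replicate 3, and the other tumours of the genotypes overlap. The means were 8.90 ± 0.43 and 8.58 ± 0.67 (SD, n = 4 each), a log2 difference of -0.32 ± 0.35 (SE; adjusted p = 0.978). Adgre1, which encodes the surface antigen F4/80, was lower by -0.47 ± 0.36 (SE), with NeuNT/H1074R replicates 3 and 4 at 5.78 and 6.29 and the other tumours between 6.60 and 7.41. The lysosomal membrane protein gene Cd68 (-0.12), the actin-binding Aif1 (-0.22) and the lysosomal protease gene Ctss (-0.22) differed less. All 5 of these genes were lowest in NeuNT/H1074R replicate 3, and all 5 had a lower mean in NeuNT/H1074R, with a median difference of -0.22. Without that tumour the median was -0.03, and Cd68 and Ctss each turned to 0.13.

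Csf1, the growth factor that binds the receptor, stood at 7.76, 8.76, 9.11 and 8.46 in NeuNT and at 8.23, 8.52, 7.74 and 8.42 in NeuNT/H1074R. It was low in NeuNT replicate 1 and NeuNT/H1074R replicate 3, the tumours in which the pan-macrophage genes were also lowest. Its difference was -0.30 ± 0.30 (SE; adjusted p = 0.978). Epithelial and stromal cells are also known to make Csf1, and their part in its level was not tested.

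The 3 chains of complement C1q, which macrophages make in large amounts and which opens the classical complement pathway, had the same highest and lowest tumours. C1qb stood at 10.26, 10.72, 10.87 and 10.53 in NeuNT and at 10.67, 10.58, 9.42 and 10.16 in NeuNT/H1074R. The highest tumour for all 3 chains was NeuNT replicate 3, and the lowest was NeuNT/H1074R replicate 3, 2.83-fold lower than the highest for C1qa, 2.73-fold for C1qb and 3.02-fold for C1qc. Between genotypes the differences were -0.35 for C1qa, -0.39 ± 0.28 (SE) for C1qb and -0.50 ± 0.32 (SE) for C1qc. The genotypes overlapped for each chain, and 12.9%, 20.5% and 24.0% of the variance of C1qa, C1qb and C1qc lay between genotypes. Without NeuNT/H1074R replicate 3 the median of the 3 chains went from -0.39 to -0.13.

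The promoters of members are shown as background. The windows are the 250 bases before the start from RefSeq (GRCm38.p6), which were at hand for 24 of the 33 genes. They were searched on both strands for GAGGAA, letters at the core of the site of PU.1, the master transcription factor of myeloid cells. At least 1 match stood in 14 of these 24 genes (58.3%), against 25.9% of all 27025 genes with a window. The members were chosen by name as macrophage and monocyte genes, and any link of these letters to the tumour values was not tested. The windows below are those of the 3 members of smallest unadjusted p that held a match, printed on the strand of the gene, with capitals for the match (TTCCTC where it lies on the other strand). A match is a run of letters and shows no binding, and the windows of Folr2 and Fcer1g, the 2 members of smallest unadjusted p, held none.
Ly6c2, chr15:75111938-75112187, minus strand: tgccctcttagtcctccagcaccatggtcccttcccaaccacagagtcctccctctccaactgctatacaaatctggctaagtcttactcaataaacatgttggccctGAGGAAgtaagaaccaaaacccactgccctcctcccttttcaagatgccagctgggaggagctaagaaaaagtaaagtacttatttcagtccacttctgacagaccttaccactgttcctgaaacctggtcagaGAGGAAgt
C1qc, chr4:136892915-136893164, minus strand: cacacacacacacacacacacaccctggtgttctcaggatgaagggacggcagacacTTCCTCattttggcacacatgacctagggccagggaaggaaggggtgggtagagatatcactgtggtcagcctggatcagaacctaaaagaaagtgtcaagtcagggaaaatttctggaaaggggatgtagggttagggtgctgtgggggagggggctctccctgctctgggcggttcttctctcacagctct
C1qb, chr4:136886201-136886450, minus strand: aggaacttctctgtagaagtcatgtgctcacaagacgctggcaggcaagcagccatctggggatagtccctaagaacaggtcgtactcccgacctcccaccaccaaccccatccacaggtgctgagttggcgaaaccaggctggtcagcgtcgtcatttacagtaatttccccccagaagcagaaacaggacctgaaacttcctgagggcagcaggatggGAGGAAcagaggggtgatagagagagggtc
Ly6c2 held 2 matches, which begin 142 and 8 bases before the start, C1qc held 1 at 193 bases and C1qb held 1 at 30 bases. C1qb and C1qc both lie on chromosome 4.

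Fc receptors bind antibody-coated targets, and the activating ones signal through the ITAM adaptor Fcer1g. Tyrobp is another ITAM adaptor, the partner of TREM2. Fcer1g had the second smallest p among the members. Its values were 10.24, 11.05, 11.43 and 11.38 in NeuNT and 10.98, 10.62, 9.61 and 10.36 in NeuNT/H1074R. NeuNT replicate 1 lay below 3 of the 4 NeuNT/H1074R tumours, and the other NeuNT tumours lay above all of them. The difference was -0.63 ± 0.34 (SE; unadjusted p = 0.1, adjusted p = 0.978), and without NeuNT replicate 1 it was -0.89 (adjusted p = 0.821). Tyrobp (-0.22), the high-affinity receptor gene Fcgr1 (-0.26) and the low-affinity receptor gene Fcgr3 (-0.22) differed by less than their residual SDs of 0.55, 0.61 and 0.54. Mast cells also express Fcer1g, and their markers moved in the same direction: 7 of 9 were tested (Fcer1a and Ms4a2 were dim) and all 7 had a lower mean in NeuNT/H1074R, with list means per tumour from -0.26 to 0.86 in NeuNT and from -1.02 to -0.14 in NeuNT/H1074R. The mast cell protease genes Mcpt4 and Tpsb2 differed by -2.13 and -1.05. NeuNT replicate 1, the lowest NeuNT tumour for Fcer1g, had the highest mast cell mean, and the part of mast cells in the Fcer1g difference was not tested.

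Resident-type and scavenger receptors held the member with the widest difference relative to its error, although 3 of the 9 had a slightly higher mean in NeuNT/H1074R. Folr2, the folate receptor that marks resident-type macrophages of the mammary gland, stood at 8.37, 8.59, 8.43 and 7.60 in NeuNT and at 7.36, 8.57, 6.85 and 6.73 in NeuNT/H1074R. The genotypes overlap only because NeuNT/H1074R replicate 2 is as high as the highest NeuNT tumours. The means were 8.25 ± 0.44 and 7.38 ± 0.84 (SD, n = 4 each), a log2 difference of -0.87 ± 0.41 (SE) with a 95% interval from -1.81 to 0.06 (unadjusted p = 0.0639, adjusted p = 0.978). Without NeuNT/H1074R replicate 2 the difference was -1.27 and did not pass either (adjusted p = 1.0).

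Other receptors of this kind shared parts of the Folr2 pattern. Siglec1, the sialic acid receptor CD169, stood at 6.07, 6.78, 6.90 and 5.51 in NeuNT and at 5.61, 6.65, 5.01 and 5.32 in NeuNT/H1074R, a difference of -0.67 ± 0.42 (SE). Mrc1, the mannose receptor CD206, stood at 7.91, 8.53, 8.31 and 7.19 in NeuNT and at 7.79, 8.49, 7.06 and 6.83 in NeuNT/H1074R, a difference of -0.44 ± 0.41 (SE). For both genes, as for Folr2, NeuNT/H1074R replicate 2 ranked with the high NeuNT tumours, and NeuNT replicate 4 was the lowest of its genotype. Timd4, a phosphatidylserine receptor of long-lived resident macrophages, was within 4.85 to 5.32 in NeuNT and spread from 3.95 to 5.55 in NeuNT/H1074R, with a difference of -0.52 ± 0.32 (SE), or -0.87 without NeuNT/H1074R replicate 2 (adjusted p = 1.0). Its range in NeuNT/H1074R thus held the range of NeuNT. The haemoglobin scavenger receptor gene Cd163 ran from 4.99 in NeuNT/H1074R replicate 1 to 6.25 in NeuNT replicate 1, with a difference of -0.19, and Stab1, a receptor for modified lipoproteins and matrix debris, differed by -0.33.

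The scavenger receptors Marco and Msr1 and the efferocytosis kinase gene Mertk did not share that pattern. Marco was flat, from 5.16 to 5.43 over all tumours with a residual SD of 0.12, and Mertk ran from 6.45 to 7.01. Msr1, the class A scavenger receptor, stood at 5.35, 5.02, 6.85 and 6.76 in NeuNT and at 7.01, 6.14, 5.14 and 5.81 in NeuNT/H1074R. It was lowest in NeuNT replicate 2, where Folr2 was highest, and highest in NeuNT/H1074R replicate 1, where Cd163 was lowest. Its difference between genotypes, 0.03 ± 0.52 (SE), had a 95% interval from -1.16 to 1.22. Over the 9 genes the median difference was -0.33, and it was -0.07 without both NeuNT/H1074R replicates 1 and 3, the tumours with high skeletal muscle genes.

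**Figure D2:**
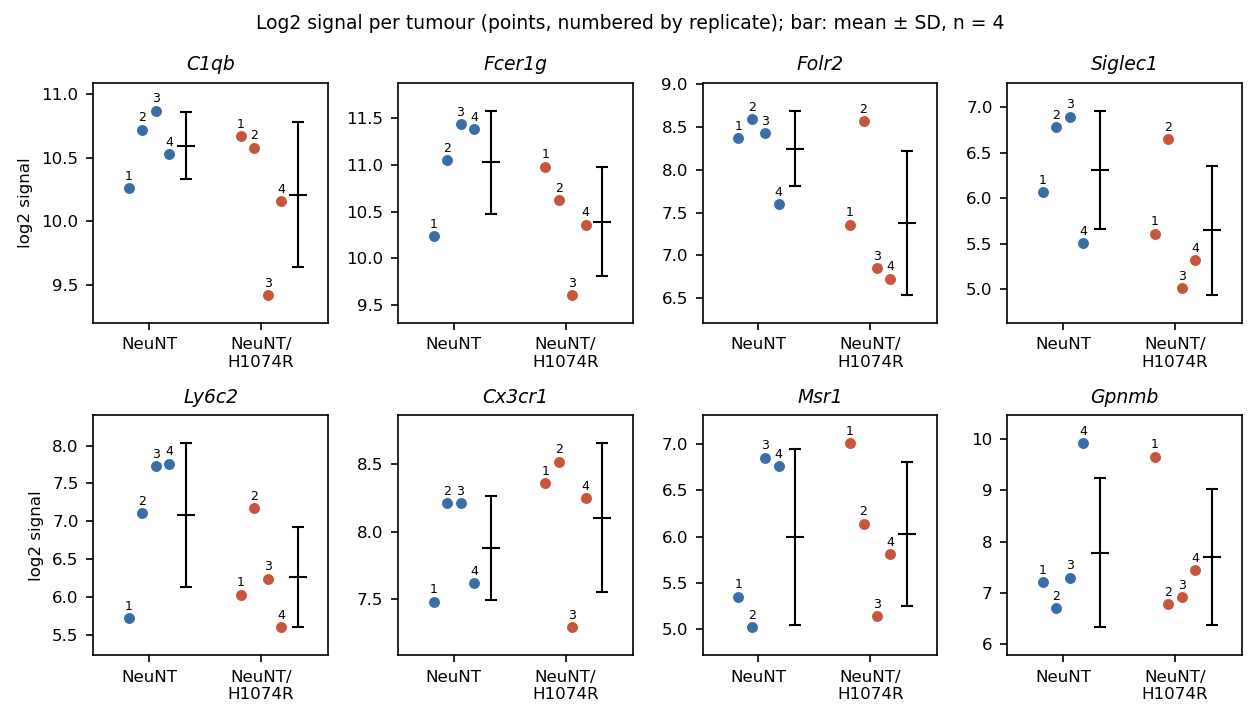
Log2 signal of 8 genes in each tumour, 1 panel per gene, with points numbered by replicate (NeuNT blue, NeuNT/H1074R red) and bars giving the mean ± SD of 4 tumours; the vertical axis differs between panels and does not start at 0. Folr2 is at 6.73 to 7.36 in 3 of the 4 NeuNT/H1074R tumours and at 8.57 in replicate 2, and Gpnmb is high in 1 tumour of each genotype, at 9.92 and 9.65.

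Monocyte genes differed from one another in which tumours were high. Ly6c2, which encodes the Ly6C antigen of classical monocytes, stood at 5.72, 7.11, 7.73 and 7.76 in NeuNT and at 6.03, 7.17, 6.24 and 5.60 in NeuNT/H1074R. NeuNT replicate 1 and NeuNT/H1074R replicate 2 each lay among the tumours of the other genotype. The difference was -0.82 ± 0.50 (SE), with a 95% interval from -1.96 to 0.31 (unadjusted p = 0.134, adjusted p = 0.978), and without NeuNT replicate 1 it was -1.28. Cx3cr1, the fractalkine receptor of patrolling monocytes and many tissue macrophages, was the only one of the 6 with a higher mean in NeuNT/H1074R. Its values were 7.48, 8.21, 8.21 and 7.62 in NeuNT and 8.36, 8.52, 7.29 and 8.25 in NeuNT/H1074R. Every NeuNT/H1074R tumour but replicate 3 lay above all NeuNT tumours, and the difference of 0.22 ± 0.30 (SE) became 0.50 without replicate 3 (adjusted p = 0.97).

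The lysozyme genes Lyz1 and Lyz2, which encode bacterial wall-splitting enzymes of phagocytes, are close copies of each other, so their probes may share signal, which was not tested. Lyz2 stood at 10.23, 10.57, 10.84 and 11.35 in NeuNT and at 11.51, 10.68, 9.33 and 10.23 in NeuNT/H1074R, a 4.54-fold range between NeuNT/H1074R replicates 1 and 3, which share a genotype. Lyz1 ran from 4.31 to 5.69 and differed by -0.50 ± 0.31 (SE). Itgam, the integrin CD11b of myeloid cells, was highest in NeuNT/H1074R replicate 1 (8.04) and NeuNT replicate 4 (7.98) and differed by -0.10. Cd14, the lipopolysaccharide co-receptor, was within 10.01 to 10.06 in 3 NeuNT/H1074R tumours and at 9.56 in replicate 4, and differed by -0.25 ± 0.22 (SE). Neutrophils also express Itgam, Lyz2 and Cd14, and 9 of 11 neutrophil markers were tested, while Ly6g and Camp lay below the limit for dim genes. Their list mean per tumour ran from -1.18 to 1.90 in NeuNT and from -0.83 to 1.0 in NeuNT/H1074R and was highest in NeuNT replicate 4 and NeuNT/H1074R replicate 1, the tumours with most Itgam and Lyz2. The granule protein genes Ngp and Ltf differed by 0.59 and -1.01. The part of neutrophils in these values was not tested.

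Among the 3 measured lipid-associated members, Gpnmb, a membrane glycoprotein of lipid-loaded and phagocytosing macrophages, had the widest spread. It stood at 7.21, 6.70, 7.30 and 9.92 in NeuNT and at 9.65, 6.79, 6.92 and 7.45 in NeuNT/H1074R. NeuNT replicate 4 and NeuNT/H1074R replicate 1 were thus high and the other 6 tumours lay between 6.70 and 7.45, a range of 9.29-fold from lowest to highest. The mean difference was -0.08 ± 0.83 (SE; adjusted p = 0.997), and it turned to 0.63 without NeuNT replicate 4 and was -0.73 without NeuNT/H1074R replicate 1. The same 2 tumours had the highest neutrophil list means, 1.90 and 1.0. They also had the highest mean deviation over 16 other lipid-associated genes, 0.43 and 0.28. The part of other cell types in the Gpnmb values was not tested.

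Trem2, a lipid receptor of this state, was highest in another tumour than Gpnmb, and the 2 tumours with high Gpnmb came next. Its values were 7.25, 7.43, 8.03 and 7.56 in NeuNT and 7.91, 7.44, 6.82 and 7.21 in NeuNT/H1074R, highest in NeuNT replicate 3, with a difference of -0.22 ± 0.26 (SE). Apoe, the lipid carrier apolipoprotein E, stood at 7.39, 8.46, 7.76 and 7.46 in NeuNT and at 7.83, 7.70, 7.09 and 7.54 in NeuNT/H1074R, highest in NeuNT replicate 2, with a difference of -0.23 ± 0.26 (SE). Each of the 3 measured genes therefore peaked in a different tumour, and without NeuNT replicate 2 the Apoe difference was 0.00. Leaving out NeuNT/H1074R replicate 1 or 3 took the median difference of the 3 genes, -0.22, to -0.41 or -0.05.

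Arg1 and Nos2 encode arginase and the inducible nitric oxide synthase, which compete for arginine and are used as labels of opposite macrophage states. Arg1 had the widest spread of all 33 members, at 6.66, 8.91, 10.24 and 10.26 in NeuNT and 9.14, 7.32, 10.40 and 7.12 in NeuNT/H1074R, a 13.4-fold range. It was highest in NeuNT/H1074R replicate 3, the tumour in which most members were lowest, and lowest in NeuNT replicate 1. Beside these values, the neutrophil list means were -0.86, -1.18, 0.24 and 1.90 in NeuNT and 1.0, -0.54, 0.26 and -0.83 in NeuNT/H1074R. The part of neutrophils or other cells in the Arg1 values was not tested. Nos2 stood at 5.39, 4.62, 5.48 and 5.45 in NeuNT and at 6.58, 4.98, 5.31 and 5.24 in NeuNT/H1074R, with 1 high tumour, NeuNT/H1074R replicate 1. Neither passed, with differences of -0.52 ± 0.97 (SE; adjusted p = 0.982) for Arg1 and 0.29 ± 0.36 (SE; adjusted p = 0.978) for Nos2, and Nos2 turned to -0.06 without NeuNT/H1074R replicate 1.

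**Figure D3:**
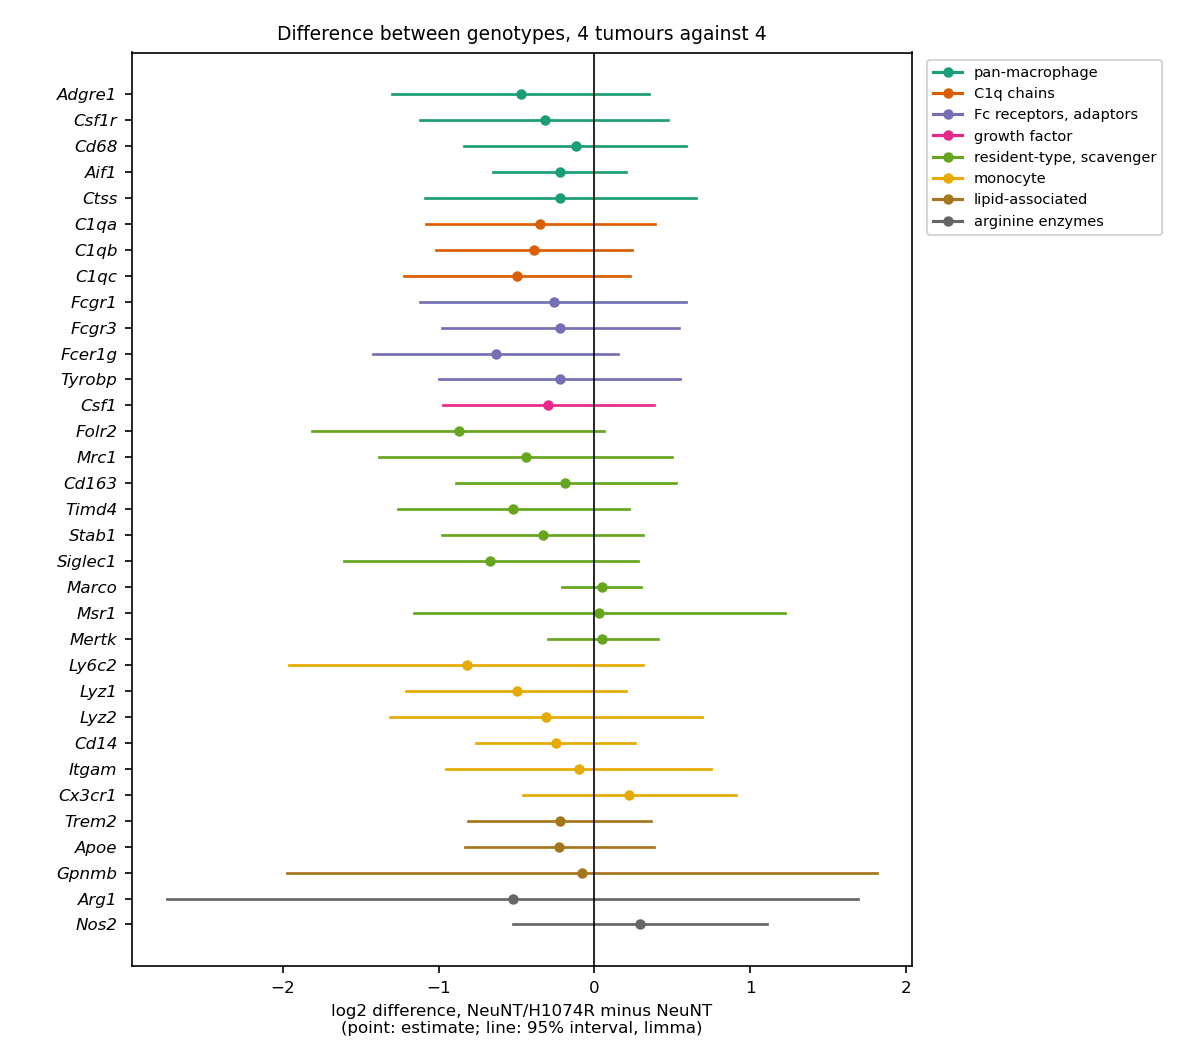
Log2 difference between genotypes (NeuNT/H1074R minus NeuNT, horizontal axis) for each of the 33 genes, coloured by role, with points for the estimate and lines for the 95% interval from limma, 4 tumours against 4. Every interval crosses 0, 28 points lie below 0, and the intervals of Arg1 and Gpnmb are the widest.

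The values of the resident-type, monocyte and lipid-associated genes can be set side by side, and no difference between these groups was tested. Their median differences were -0.33, -0.28 and -0.22, beside -0.22 for the pan-macrophage genes, -0.24 for the Fc receptors and adaptors and -0.39 for C1q. With 1 tumour left out, the median of the monocyte genes ran from -0.52 to -0.11 and that of the Fc receptors and adaptors from -0.48 to -0.04, in both cases nearest to 0 without NeuNT/H1074R replicate 3. The resident-type median ran from -0.49 without NeuNT/H1074R replicate 2 to -0.18 without NeuNT/H1074R replicate 4. The mean deviation of the 9 resident-type genes from their own means was 0.11, 0.26, 0.33 and -0.05 in NeuNT and -0.05, 0.43, -0.57 and -0.45 in NeuNT/H1074R, and NeuNT/H1074R replicate 2 was highest. For the 6 monocyte genes it was -0.39, 0.06, 0.41 and 0.51 in NeuNT and 0.28, 0.18, -0.61 and -0.44 in NeuNT/H1074R, and NeuNT replicate 4 was highest. For the 3 lipid-associated genes it was -0.34, -0.09, 0.08 and 0.69 in NeuNT and 0.84, -0.31, -0.67 and -0.22 in NeuNT/H1074R. It was highest in the same 2 tumours as Gpnmb, which is 1 of the 3 genes averaged, so this is no separate result. NeuNT/H1074R replicate 3 was the lowest tumour for each of the 3 groups. The monocyte and lipid-associated means lay on the same side of 0 in NeuNT replicates 1, 3 and 4 and in NeuNT/H1074R replicates 1, 3 and 4. In those tumours the pan-macrophage, C1q and Fc receptor means had the same signs, so this match is not particular to the monocyte and lipid-associated genes.

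To set each member beside the shared macrophage genes of its own tumour, each of the other 25 members was expressed relative to the mean deviation of the 5 pan-macrophage and 3 C1q genes in the same tumour. This step was chosen after the values had been seen and is given without a test. The 8 reference genes together differed by -0.33 between genotypes and ranged from -0.96 in NeuNT/H1074R replicate 3 to 0.41 in NeuNT replicate 3. Relative to them, 9 of the 25 members were lower in NeuNT/H1074R and 16 were higher, and the median was 0.08. The median relative difference was -0.01 for resident-type, 0.05 for monocyte and 0.10 for lipid-associated genes. Spread between tumours of a genotype shrank for 18 of the 25, to 0.15 from 0.55 for Tyrobp, to 0.17 from 0.56 for Fcer1g and to 0.22 from 0.40 for Trem2. It grew for the other 7, namely the resident-type genes Cd163 (to 0.84 from 0.50), Marco (to 0.49 from 0.12), Mertk (to 0.33 from 0.20) and Timd4 (to 0.61 from 0.53), and Cd14, Arg1 and Nos2.

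On this relative scale the lowest differences were those of Folr2 (-0.55), Ly6c2 (-0.50) and Siglec1 (-0.34). The relative level of Folr2 was 0.88, 0.51, 0.21 and -0.51 in NeuNT and -0.80, 0.60, 0.00 and -0.89 in NeuNT/H1074R, so the genotypes still overlapped. In NeuNT replicate 4 and NeuNT/H1074R replicate 1, the tumours in which relative Gpnmb was highest (1.88 and 1.55), most of the 9 resident-type genes were low. Mrc1 was at -0.87 and -0.32, Siglec1 at -0.77 and -0.72, Cd163 at -0.83 and -1.03 and Timd4 at -0.17 and -0.97. Marco was at -0.31 and -0.44 and Mertk at -0.17 and -0.0. The exceptions were Stab1, at 0.01 and 0.03, and Msr1, which had its highest relative levels there, 0.45 and 0.64. Cx3cr1 was the 1 member of the 25 whose genotypes did not overlap, at -0.19, -0.05, -0.19 and -0.67 in NeuNT and 0.02, 0.37, 0.26 and 0.45 in NeuNT/H1074R, a relative difference of 0.55. On the same scale the genotypes did not overlap for 0.289% of all tested genes, a share from which nothing is read here, since the subtraction puts the spread of the reference genes into every gene that does not follow them.

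**Figure D4:**
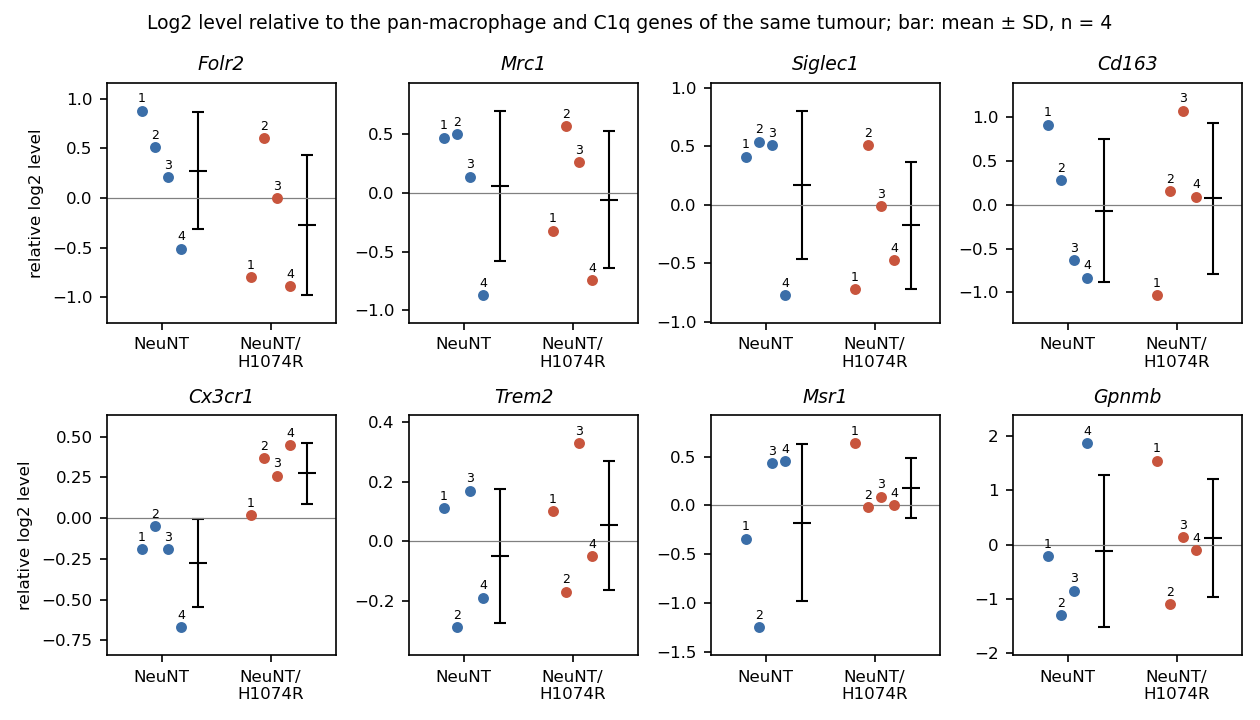
Log2 level of 8 genes relative to the mean deviation of the pan-macrophage and C1q genes in the same tumour, 1 panel per gene, with points numbered by replicate and bars giving the mean ± SD of 4 tumours per genotype. Cx3cr1 lies below 0 in all NeuNT tumours and above 0 in all NeuNT/H1074R tumours, and Gpnmb stands out in NeuNT replicate 4 (1.88) and NeuNT/H1074R replicate 1 (1.55).

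Other genes of the macrophage programme gave a like picture. Of 87 listed genes 74 were tested, 60 had a lower mean in NeuNT/H1074R and 14 a higher one, with a median difference of -0.20, and 0 passed. At an unadjusted p under 0.05 there were 4 lower and 1 higher, against 1.71% and 2.11% of all tested genes. The genotypes did not overlap for 3 of the 74, against 2.69% of all tested genes. The other resident-type genes had the lowest median, -0.53 over 10 tested genes that were all lower, among them the lectin gene Mgl2 (-0.60 ± 0.20 SE, unadjusted p = 0.0162) and the chemokine gene Ccl8 (-1.09 ± 0.55 SE). Other monocyte genes had a median of -0.10 over 11 genes, with the monocyte chemokine receptor gene Ccr2 at -0.47 and Ly6c1 at -0.37, a close copy of Ly6c2 whose probe lay near the limit for dim genes. Other lipid-associated genes had a median of -0.07 over 16 genes, with the fatty acid transporter gene Cd36 at -0.95, or -0.49 without NeuNT replicate 1, and the receptor kinase gene Axl at -0.29. Adipocytes and endothelium also express Cd36. It stood at 9.31 and 7.89 in NeuNT replicates 1 and 2, the tumours with the highest adipocyte list means (0.97 and 0.99). It was as high, at 7.93, in NeuNT replicate 4, where the adipocyte list mean was -0.33. In NeuNT/H1074R replicate 2 it was 7.70, with a list mean of 0.10. The part of those cells was not tested.

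Further pan-macrophage genes had a median of -0.17 over 14 genes, among them the co-stimulatory ligand gene Cd86 (-0.34) and the oxidase subunit gene Ncf1 (-0.39). The growth and transcription factors had a median of -0.36 over 7 genes. Il34, the second ligand of CSF1R, differed by -0.49 ± 0.21 (SE, unadjusted p = 0.0415), and Nr1h3, the oxysterol receptor LXRα, by 0.30 ± 0.13 (SE), above all NeuNT tumours in all NeuNT/H1074R tumours. The signalling genes below the ITAM adaptors had a median of -0.18 over 11 genes, 10 of them lower. The exception, Plcg2, a phospholipase of B cells and macrophages, stood at 7.67, 7.72, 7.54 and 7.56 in NeuNT and at 8.89, 8.05, 8.37 and 8.34 in NeuNT/H1074R. Its groups did not overlap, with a difference of 0.79 ± 0.18 (SE; unadjusted p = 0.00183) that did not pass (adjusted p = 0.978), while the neighbouring kinase gene Btk differed by -0.43. The other complement genes had a median of -0.48 over 5 genes and held Cfp, which encodes properdin, at 7.55 to 7.64 in NeuNT and 6.43 to 7.53 in NeuNT/H1074R (-0.68 ± 0.25 SE, unadjusted p = 0.0248), and C4b at -0.96 ± 0.47 (SE). None of these genes passed.

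Lower means in NeuNT/H1074R were also found for markers of other cells. The mean was lower for 8 of 8 tested T cell markers (median difference -0.27, Cd3d -0.21, Cd3e -0.69), 7 of 8 adipocyte markers (median -0.80, Fabp4 -1.12, Plin4 -0.84), 9 of 10 fibroblast markers (median -0.26, Dpt -1.56, Dcn -1.07) and 6 of 8 endothelial markers (median -0.16, Plvap -0.49, Emcn -0.24). List means per tumour ran from -0.48 to 0.86 in NeuNT and from -0.53 to 0.04 in NeuNT/H1074R for T cells, and from -0.33 to 0.99 and from -0.66 to 0.10 for adipocytes. For fibroblasts they ran from -0.51 to 0.70 and from -0.61 to 0.21, and for endothelium from -0.41 to 0.57 and from -0.19 to 0.03. Their part in the member values was not tested. Dendritic cell markers varied little, with list means per tumour from -0.12 to 0.24 and 3 of 7 lower (Cd209a 0.44, Siglech -0.28), and luminal epithelial markers were lower for 5 of 10. Skeletal muscle markers (Myh1 1.23, Eno3 0.59) were high in NeuNT/H1074R replicates 1 and 3, at 1.58 and 1.20, and these tumours had member means of 0.29 and -0.64, the highest and the lowest of their genotype. Without both tumours, 29 members were lower, with a median difference of -0.23.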

How the data were processed

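Total RNA from 8 tumours was labelled for Affymetrix whole-transcript arrays. The authors deposited log2 values for 41345 probes. Their processing notes, per the labels, name Expression Console and Transcriptome Analysis Console, both from Affymetrix. Versions, background correction and normalization: not given in the sources used here. That the values are log2 was judged from their range (0.887 to 13.6). Arrays have no read depth, and their number limits the precision.

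The platform annotation gave 23521 probes 1 symbol and 1814 several, and 16010 were not listed. Where a gene had several probes, the one with the highest mean was kept. Genes in the lowest 25% by mean, under 4.06, were left out (5545), and 16635 were tested with limma 3.58.1 in R 4.3.3 (lmFit, eBayes with an intensity trend, no covariate, Benjamini-Hochberg), after a check on simulated data. Plots used matplotlib 3.10.9. The members and all gene lists were chosen with earlier results of these data known, so lists are described by counts and medians without tests. All members are named; of each list of other macrophage genes, and of each marker list set beside a member, the 2 genes of smallest unadjusted p are named, and any further gene was named after its values were seen. Protein sequences were not used here.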

Additional observations from a re-analysis of the deposited data

Results flagged for a closer look

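Dixon's ratio, the gap of an extreme tumour to its neighbour over the range of its genotype, was computed for 80 groups of 4 tumours (33 genes and 7 role groups in each genotype). It passed Dixon's 95% critical value for 4 groups, where chance at 1 in 20 gives 4.0. Cd14 stood at 9.56 in NeuNT/H1074R replicate 4, against 10.01 to 10.06 in the others. Cd68 stood at 9.24 in NeuNT/H1074R replicate 3, against 10.19 to 10.36. C1qc stood at 7.87 in NeuNT replicate 1, against 8.60 to 8.65. Nos2 stood at 4.62 in NeuNT replicate 2, against 5.39 to 5.48.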

How the results depend on the processing

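No paired analysis was possible because no tumour number occurs in both genotypes. No member passed under any alternative: each tumour left out, quantile normalization, centred arrays, no filter or a 50% filter on dim genes, averaged probes, a constant variance prior, array weights, and both tumours with high muscle genes left out. A single probe per member made averaging probes the same for them. With 1 tumour left out, members with a lower mean in NeuNT/H1074R numbered 21 to 30, and those whose genotypes did not overlap numbered 0 to 3, where 3.88% to 6.88% of all tested genes did not overlap. Without both muscle-high tumours there were 2, Cx3cr1 and Marco, beside 19.6% of all tested genes. The 50% filter tested only 29 of the 33 members, since Timd4, Lyz1, Marco and Nos2 had means below its limit of 5.59. On the log2 scale as fitted, 20 of the 33 members kept their sign under all these alternatives in which they were tested. The other 13 crossed 0 when 1 tumour was left out, with ranges of -0.40 to 0.01 for Cd163, -0.30 to 0.33 for Msr1, -0.06 to 0.12 for Mertk, -0.67 to 0.06 for Lyz2, -0.37 to 0.12 for Itgam, -0.35 to 0.00 for Apoe, -0.73 to 0.63 for Gpnmb, -0.27 to 0.13 for Cd68, -0.46 to 0.13 for Ctss, -0.52 to 0.01 for Fcgr1, -0.46 to 0.01 for Fcgr3, -0.44 to 0.09 for Tyrobp and -0.06 to 0.48 for Nos2. Without both muscle-high tumours Cd163 turned to 0.01, Msr1 to -0.01, Mertk to -0.01, Cd68 to 0.09 and Nos2 to -0.12. Relative to the pan-macrophage and C1q genes, an alternative chosen after seeing the data, the median member difference went from -0.26 to 0.08, on the other side of 0. On that scale 11 of 25 members turned sign, 3 of them (Cd14, Trem2 and Csf1) under no other alternative. The alternatives that left out tumours hold fewer tumours, and the cause was not tested. The number of arrays limits the precision: 95% intervals of members reached from -2.74 to 1.69 for Arg1 and from -0.21 to 0.30 for Marco.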
